A study of Mus musculus with 18 samples.

Results

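Infiltrating monocyte and leukocyte genes were examined in bulk liver RNA-Seq. The group holds 10 genes, taken by symbol from the 55487 genes of the raw count table: Ptprc, Cd52, Cd48, Lyz2, Cd68, Igsf6, Cd14, Acod1, Chil3 and Ly6c2. Livers came from adult male C57BL/6J mice, 6 in each of 3 groups, with 1 library per mouse. CON-GFP mice received an AAV that expresses GFP and a purified control diet, FPC-GFP mice received the same GFP vector and the FPC diet (a high-fat diet with added fructose, palmitate and cholesterol), and FPC-LIPA mice received the FPC diet and an AAV that carries human LIPA, the gene for lysosomal acid lipase (LAL). All mice were injected 1 week before a diet period of 16 weeks, so every group carries a vector, and the TBG promoter of the vector limits the transgene to hepatocytes. No member is a product of the vector. The mouse Lipa row (202 to 406 CPM) is not a measure of the human transgene, so the vector could not be checked from these values.

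Leukocytes that enter the liver bring with them the surface phosphatase CD45 and, for the monocyte lineage, a set of lysosomal and surface proteins. Circulating monocytes with high Ly6C leave the blood at sites of injury and become macrophages, which lose Ly6C and gain lysosomal content. Kupffer cells, the resident macrophages, already carry CD45, lysozyme and CD68 in healthy liver, so most of these genes do not tell an incoming cell from a resident one. In bulk RNA, more cells of a type and more RNA per cell cannot be told apart.

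The members lie on 9 chromosomes (GRCm38, GENCODE M21), and all are annotated as protein coding. Lyz2 lies on chromosome 10 (117277331 to 117282321), Cd68 on chromosome 11 (69664213 to 69666153), Igsf6 on chromosome 7 (121064067 to 121074572) and Acod1 on chromosome 14 (103046977 to 103056573). Ptprc and Cd48 share chromosome 1, at 138062861 to 138175708 and 171682009 to 171705258. Cd52 is at 134082448 to 134095082 of chromosome 4, Ly6c2 at 75108158 to 75111970 of chromosome 15, Chil3 at 106147554 to 106167564 of chromosome 3, and Cd14 at 36725067 to 36726798 of chromosome 18, where it is a single exon of 1732 bases.

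The 250 bases before the RefSeq gene start (GRCm38.p6) are shown for 4 members that stand for the patterns described here: Lyz2 and Igsf6, which were higher with each step, Cd68, which was higher with the diet, and Acod1, which was at or near 0 in CON-GFP. Each is given 5′ to 3′ on the strand of its gene. Capitals mark matches, on either strand, to the letters searched: GAGGAA (the core of PU.1, the master factor of myeloid cells), TTNNGNAA (C/EBP factors) and, for NF-kB, GGG and CC with any 5 bases between them.

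Lyz2, chr10:117282273-117282522, minus strand: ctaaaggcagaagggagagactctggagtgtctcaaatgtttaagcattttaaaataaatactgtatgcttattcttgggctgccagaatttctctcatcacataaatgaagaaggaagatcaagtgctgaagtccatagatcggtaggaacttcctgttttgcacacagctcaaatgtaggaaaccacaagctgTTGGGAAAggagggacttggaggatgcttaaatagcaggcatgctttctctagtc
Cd68, chr11:69666171-69666420, minus strand: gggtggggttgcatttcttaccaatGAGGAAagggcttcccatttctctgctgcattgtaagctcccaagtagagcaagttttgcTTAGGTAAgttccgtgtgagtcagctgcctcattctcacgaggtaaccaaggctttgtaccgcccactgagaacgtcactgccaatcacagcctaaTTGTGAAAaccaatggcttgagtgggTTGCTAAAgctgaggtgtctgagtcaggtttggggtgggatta
Igsf6, chr7:121074531-121074780, minus strand: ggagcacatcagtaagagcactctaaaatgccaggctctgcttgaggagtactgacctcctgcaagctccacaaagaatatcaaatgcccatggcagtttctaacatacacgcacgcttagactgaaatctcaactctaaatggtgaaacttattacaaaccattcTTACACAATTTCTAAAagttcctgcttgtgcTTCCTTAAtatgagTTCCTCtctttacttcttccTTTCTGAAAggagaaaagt
Acod1, chr14:103046762-103047011, plus strand: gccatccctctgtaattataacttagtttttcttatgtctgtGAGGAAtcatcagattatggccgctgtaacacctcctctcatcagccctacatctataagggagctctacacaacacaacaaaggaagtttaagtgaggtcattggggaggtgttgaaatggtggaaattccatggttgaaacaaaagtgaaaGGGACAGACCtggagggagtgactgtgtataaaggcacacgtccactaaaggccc

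In the Igsf6 sequence the last capitals hold overlapping C/EBP matches on both strands, 19 to 11 bases before the start. Of the 10 members, 8 were searched. Cd52 had no listed RefSeq window, and Cd14 was left out of the search because windows of members on chromosome 18 were not used. The windows of all genes were not cut in this way. The PU.1 letters were present in 5 of these 8 members (Ptprc, Ly6c2, Cd68, Igsf6 and Acod1), against 23.3% of all 32851 windows of this length. The C/EBP letters were present in 6 of 8, against 36.8% of windows. The NF-kB letters were present in 2 of 8 (Acod1 and Chil3), against 45.8%, and the letters of an interferon response element (GAAA, any 2 bases, GAAA) in 0 of 8, against 2.98%. Ptprc and Ly6c2 have more than 1 listed start, so the 8 members hold 10 windows. The shares of all genes are by window. Counted by window, the members had the PU.1 letters in 6 of 10 and the C/EBP letters in 7 of 10. The NF-kB letters were in 2 of 10 and those of the interferon response element in 0 of 10. These matches describe letters only, and binding was not measured here.

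Total counts per library ranged from 16632146 to 37739301. Levels are CPM, counts per M reads after TMM scaling of the 18 libraries, and a value with ± is the mean and SD of 6 mice. Libraries within FPC-LIPA stood apart from each other: the counts on 79 ribosomal protein genes made up 2.15 to 2.93% of FPC-LIPA 31, 33 and 34 and 6.42 to 8.09% of FPC-LIPA 36, 37 and 39, against 1.43 to 1.79% in FPC-GFP and 1.74 to 2.52% in CON-GFP. Hbb-bs, an adult beta globin of red blood cells, moved with this share, at 218 to 569 CPM in FPC-LIPA 31, 33 and 34 and 1389 to 2185 CPM in FPC-LIPA 36, 37 and 39. Hbb-bt did so too, at 33.6 to 59.6 and 191 to 238 CPM. Other red blood cell genes did not. Hba-a1 was at 100 to 138 and 42.1 to 119 CPM in the same livers, and Alas2 at 88.8 to 102 and 29.6 to 67.3 CPM. The member fold changes and list counts of FPC-LIPA are therefore also given without FPC-LIPA 36, 37 and 39. FPC-LIPA 37 differs further in its labels, since its title reads 37b where its description reads 37, and its sample sheet number lies outside the 55 to 80 of the other 17 libraries. Liver identity was clear in all groups, with Alb (albumin) at a mean of 51311 CPM over the 18 libraries.

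**Figure D1:**
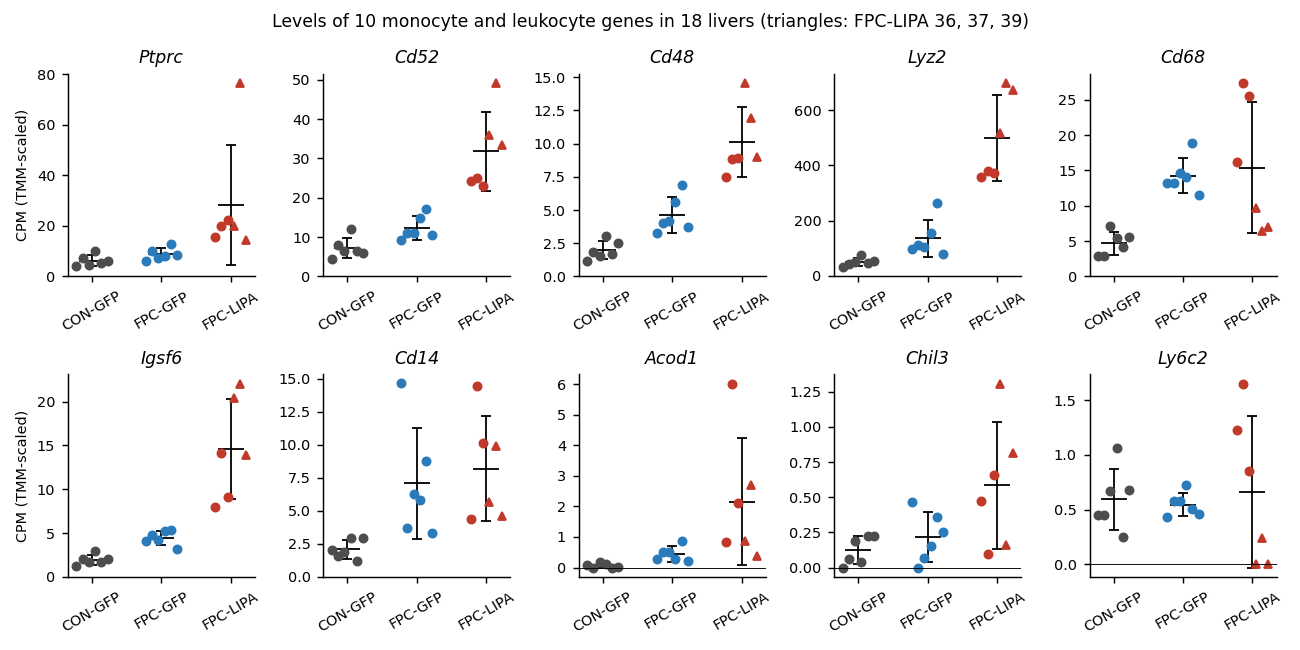
Levels of the 10 genes in each of the 18 livers, in CPM on linear axes (CON-GFP grey, FPC-GFP blue, FPC-LIPA red; triangles are FPC-LIPA 36, 37 and 39), with the mean as a horizontal bar and the SD as error bars (n = 6). Lyz2, Cd52 and Igsf6 step up from group to group, whereas Cd68 and Ly6c2 split within FPC-LIPA, with the triangles at the bottom.

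The diet comparison asked how these genes differ between FPC-GFP and CON-GFP livers. Calls needed a change of 2-fold or more in either direction together with an adjusted p below 0.05 (edgeR quasi-likelihood test, Benjamini-Hochberg adjustment over all tested genes). Of the 10 members 8 passed the filter on low counts and 5 were called higher in FPC-GFP: Cd14, Cd68, Lyz2, Cd48 and Igsf6. No member was called lower. Over all 14307 tested genes 4.76% were called higher and 2.44% lower. The median log2 fold change was 1.21 over the 8 tested members and 0.01 over all tested genes. In the same 5 members every FPC-GFP library was above every CON-GFP library, which held for 6.19% of all tested genes. With library size alone as the scaling, the median of all tested genes moved to 0.21, and 5 members were again called.

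The lysosomal and phagocyte genes Cd68 and Lyz2 were called higher. Cd68, a glycoprotein of macrophage lysosomes, was lowest at 2.84, had a median of 4.78 and reached 7.09 CPM in CON-GFP, and ran from 11.6 through a median of 13.6 to 18.9 CPM in FPC-GFP. The groups did not overlap, and the log2 fold change was 1.60 (SE 0.21, adjusted p = 2.42e-04, edgeR quasi-likelihood test). Lyz2, the lysozyme of monocytes and macrophages, ran from 30.7 to 75.4 CPM (median 47.0) in CON-GFP and from 80.3 to 263 CPM (median 108) in FPC-GFP. FPC-GFP 19 was the highest and FPC-GFP 20 lay just above the highest control. Its log2 fold change was 1.44 (SE 0.27, adjusted p = 0.00229, edgeR), or 2.72-fold.

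Cd14, the surface co-receptor that passes lipopolysaccharide to TLR4, ran from 1.20 to 2.93 CPM in CON-GFP and from 3.28 to 14.6 CPM in FPC-GFP, with medians of 1.93 and 6.04 CPM. All FPC-GFP livers were above all controls, though they spread widely, and FPC-GFP 11 was the highest. The log2 fold change was 1.76 (SE 0.34, adjusted p = 0.00276, edgeR) and 1.42 without FPC-GFP 11. Igsf6, an immunoglobulin superfamily receptor of myeloid cells, rose from 1.94 ± 0.603 to 4.46 ± 0.799 CPM (log2 fold change 1.20, SE 0.21, adjusted p = 0.00153, edgeR). Its groups did not overlap either, with 2.99 CPM as the highest control and 3.23 CPM as the lowest FPC-GFP liver.

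Of the pan-leukocyte surface genes Cd48, Cd52 and Ptprc, 1 of 3 was called. Cd48, a ligand of the SLAM family on most leukocytes, rose from 1.98 ± 0.686 to 4.62 ± 1.37 CPM (log2 fold change 1.22, SE 0.25, adjusted p = 0.00350, edgeR), and its groups did not overlap. Cd52, a small glycosylated surface peptide of lymphocytes and monocytes, went from 7.22 ± 2.66 to 12.3 ± 2.98 CPM, a difference of 0.77 on the log2 scale that lay under the fold minimum (SE 0.22, adjusted p = 0.0207, edgeR). Ptprc, which encodes CD45 on all nucleated blood cells, was at 4.07 to 10.01 CPM in CON-GFP and at 6.04 to 12.8 CPM in FPC-GFP. These ranges overlap, and the difference of 0.50 on the log2 scale (SE 0.23, adjusted p = 0.118, edgeR) did not pass the test.

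Ly6c2, the gene of the inflammatory monocyte antigen Ly6C, was low in both groups, at 7 to 27 counts per library in CON-GFP and 9 to 24 in FPC-GFP. The levels were 0.595 ± 0.281 and 0.547 ± 0.103 CPM, and the log2 fold change was -0.12 (SE 0.32, adjusted p = 0.808, edgeR). Acod1, the enzyme that makes itaconate in activated macrophages, and Chil3 (Ym1), a chitinase-like protein of monocytes and alternatively activated macrophages, were too low to be tested in this comparison. Acod1 had 0 to 5 counts in the CON-GFP livers, 5 of them at 3 counts or fewer, and 4 to 29 counts in the FPC-GFP livers. Chil3 had 0 to 8 and 0 to 15 counts. With no filter on low counts, the log2 fold change of Acod1 was 2.59 (SE 0.63, adjusted p = 0.00972, edgeR), a value that depends on few counts, and that of Chil3 was 0.70 (adjusted p = 0.538, edgeR).

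Ratios within a library remove its scaling. The log2 ratio of Lyz2 to Ptprc was 3.00 ± 0.301 in CON-GFP and 3.85 ± 0.438 in FPC-GFP, a difference of 0.85 (exact permutation test, 2-sided, p = 0.00433, adjusted p = 0.0260 over 6 ratio tests). The log2 ratio of Ly6c2 to Clec4f, a lectin of Kupffer cells, was lower by 1.07 in FPC-GFP, with means of -6.88 ± 0.601 in CON-GFP and -7.95 ± 0.351 in FPC-GFP (exact permutation test, p = 0.0108, adjusted p = 0.0325). Clec4f itself rose with the diet from 68.5 ± 18.9 to 139 ± 17.6 CPM. Both calls were lost with sample sheet numbers 55 to 68 alone, and in 9 and 11 of the 12 tests that left out 1 library. The ratio of Ly6c2 to its neighbour Ly6c1, an endothelial antigen, differed by 0.10 on the log2 scale, with SDs of 1.40 and 1.05 (exact permutation test, p = 0.885).

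**Figure D2:**
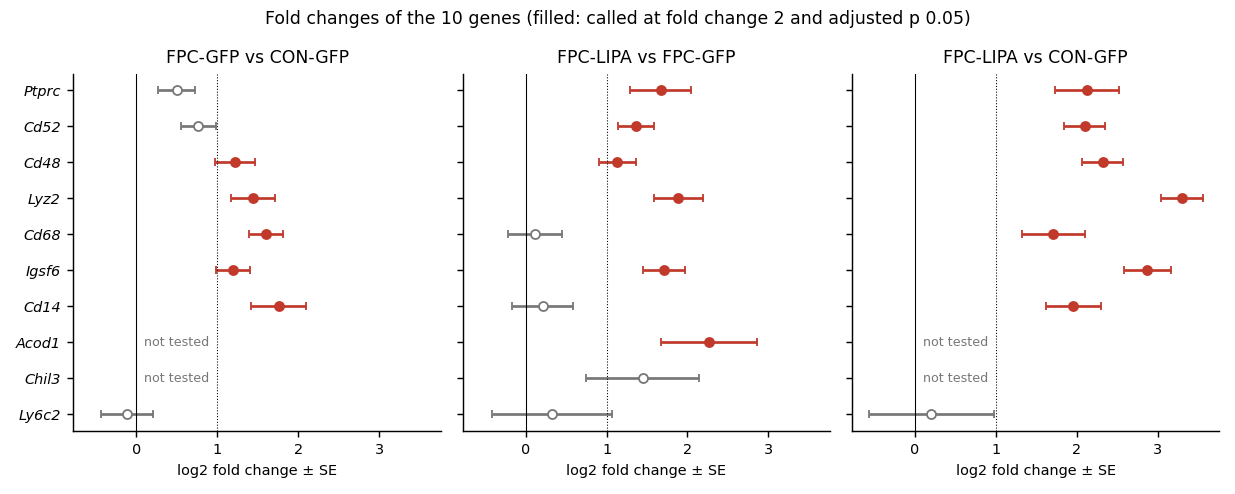
Log2 fold change of each of the 10 genes with its SE in the 3 comparisons (edgeR quasi-likelihood fits of 12 libraries each). Filled points were called, open points were not, the dotted line marks a 2-fold increase, and Acod1 and Chil3 were not tested against CON-GFP.

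The LIPA comparison asked how FPC-LIPA livers differ from FPC-GFP livers on the same diet. All 10 members were tested, and 6 were called higher in FPC-LIPA: Acod1, Lyz2, Igsf6, Ptprc, Cd52 and Cd48. None was called lower. Over all 14620 tested genes 10.3% were called higher and 1.11% lower. The median log2 fold change was 1.41 over the members and 0.04 over all tested genes. In 5 members (the 6 without Acod1) every FPC-LIPA library lay above every FPC-GFP library, against 3.81% of all tested genes. Acod1 and Chil3 passed the filter in this comparison and not in the diet comparison, so their levels in FPC-LIPA bear on their being tested. The median of 1.41 includes both, and the count of 6 includes Acod1. Neither is therefore over the same genes as its value in the diet comparison. The FPC-GFP libraries stand in both comparisons.

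Lyz2 was the most abundant member per length, at 380 ± 118 CPM per kb in FPC-LIPA, followed by Cd52 at 26.8 ± 8.47 and Cd68 at 12.2 ± 7.39 CPM per kb. Lyz2 ran from 360 to 698 CPM (median 449) in FPC-LIPA, so the lowest FPC-LIPA liver was above the highest FPC-GFP liver at 263 CPM. The log2 fold change was 1.88 (SE 0.30, adjusted p = 0.00844, edgeR). It was 1.46 (adjusted p = 0.0418, edgeR) without FPC-LIPA 36, 37 and 39.

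Igsf6 and Cd52 followed the same course. Igsf6 ran from 7.94 to 22.1 CPM in FPC-LIPA, all above the FPC-GFP range that ended at 5.31 CPM, and the log2 fold change was 1.71 (SE 0.26, adjusted p = 0.00842, edgeR). Cd52 ran from 23.0 to 49.2 CPM, above the FPC-GFP maximum of 17.02 CPM, and the log2 fold change was 1.37 (SE 0.22, adjusted p = 0.00943, edgeR). Both were highest in FPC-LIPA 37. Without FPC-LIPA 36, 37 and 39, Igsf6 was still called at 1.23 (adjusted p = 0.0250, edgeR), and Cd52 fell under the fold minimum at 0.97 (adjusted p = 0.0333, edgeR).

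Ptprc showed the widest spread among the called surface genes. Of the FPC-LIPA livers 5 lay between 14.5 and 22.4 CPM and FPC-LIPA 37 was at 76.5 CPM, while FPC-GFP ended at 12.8 CPM. The log2 fold change was 1.67 (SE 0.38, adjusted p = 0.0159, edgeR), and it was 1.06 without FPC-LIPA 37 and 1.14 without FPC-LIPA 36, 37 and 39 (adjusted p = 0.0325, edgeR), called in both. Cd48 rose to 10.1 ± 2.61 CPM (log2 fold change 1.13, SE 0.23, adjusted p = 0.0126, edgeR), with 7.50 CPM as the lowest FPC-LIPA and 6.90 CPM as the highest FPC-GFP liver. Cd48 was close to the fold minimum. It fell under that minimum without FPC-LIPA 36, at 0.99, and was at 0.87 (adjusted p = 0.0835, edgeR) without FPC-LIPA 36, 37 and 39.

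Acod1 had the largest fold change of the members, 4.81-fold or 2.26 on the log2 scale (SE 0.60, adjusted p = 0.0225, edgeR). Its values in FPC-LIPA ran from 0.361 through a median of 1.497 to 6.02 CPM, against 0.205 to 0.870 CPM in FPC-GFP, so the groups overlapped. FPC-LIPA 33 held 244 counts and the other FPC-LIPA livers 8 to 67. Without FPC-LIPA 33 the log2 fold change was 1.59, without FPC-LIPA 36, 37 and 39 it was 2.74 (adjusted p = 0.0365, edgeR), and the call was lost without FPC-GFP 11 and without FPC-GFP 20. Chil3 stayed low, at 2 to 43 counts in FPC-LIPA, and its difference of 1.45 on the log2 scale (SE 0.70, adjusted p = 0.134, edgeR) did not pass the test, nor did its 0.90 without FPC-LIPA 36, 37 and 39 (adjusted p = 0.575, edgeR).

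Cd68, Cd14 and Ly6c2 did not pass the test in this comparison, and each was spread within FPC-LIPA. Cd68 was at 16.2, 27.4 and 25.6 CPM in FPC-LIPA 31, 33 and 34 and at 9.71, 6.43 and 7.00 CPM in FPC-LIPA 36, 37 and 39, around the FPC-GFP range of 11.6 to 18.9 CPM. Thus 3 of the 6 livers lay below every FPC-GFP liver and 2 above every one, and the log2 fold change over all was 0.12 (SE 0.33, adjusted p = 0.813, edgeR). Cd14 ran from 4.38 to 14.4 CPM, within the FPC-GFP range (log2 fold change 0.21, SE 0.38, adjusted p = 0.700, edgeR), and was at 0.45 (adjusted p = 0.613, edgeR) without FPC-LIPA 36, 37 and 39.

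Ly6c2 had 39, 67 and 27 counts in FPC-LIPA 31, 33 and 34 and 0, 3 and 0 counts in FPC-LIPA 36, 37 and 39. In CPM, the first 3 livers were at 1.23, 1.65 and 0.851, above every FPC-GFP liver, and the last 3 at 0 to 0.238, below every one. The log2 fold change over all 6 was 0.33 (SE 0.74, adjusted p = 0.762, edgeR). It was 1.19 (adjusted p = 0.0902, edgeR) without FPC-LIPA 36, 37 and 39, and Cd68 was then at 0.70 (adjusted p = 0.0884, edgeR). With FPC-LIPA 36, 37 and 39 as the only livers of their group, Ly6c2 was called lower, at -3.37 (adjusted p = 0.00681, edgeR), and Cd68 was at -0.91 (adjusted p = 0.00238, edgeR). These libraries were set apart by their ribosomal protein gene share after the data were seen, and the part of that share in these values was not tested.

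**Figure D3:**
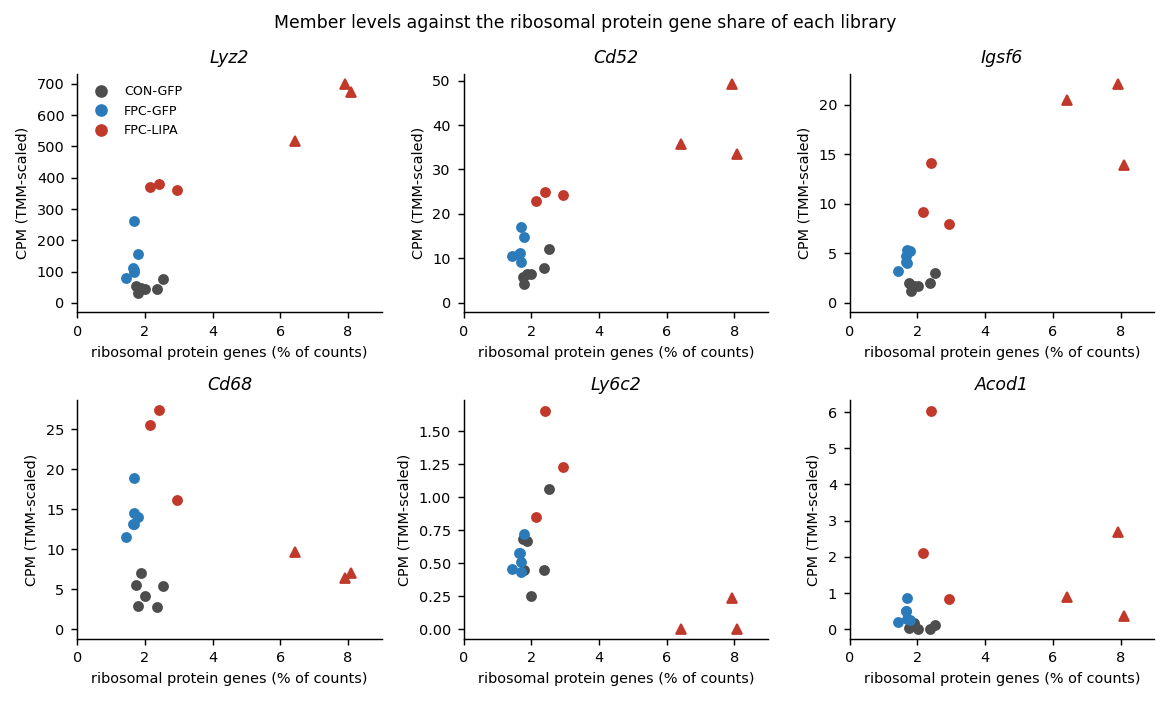
CPM of 6 members against the share of counts on 79 ribosomal protein genes in each of the 18 livers (colours by group; triangles are FPC-LIPA 36, 37 and 39). The triangles, at 6.42 to 8.09%, hold the 3 highest values of Lyz2 and Cd52, the 3 lowest values of Ly6c2, and the 3 lowest FPC-LIPA values of Cd68.

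Within-library ratios in the LIPA comparison did not pass the test. The log2 ratio of Lyz2 to Ptprc was 4.37 ± 0.773 in FPC-LIPA, a difference of 0.51 from FPC-GFP (exact permutation test, p = 0.188, adjusted p = 0.377). For Ly6c2 to Clec4f the difference was -1.73 (exact permutation test, p = 0.268), with an SD of 3.08 in FPC-LIPA against 0.351 in FPC-GFP. FPC-LIPA 36 and 39 had 0 counts of Ly6c2, so the pseudocount of 0.5 sets their ratios, and the difference was -1.08 with a pseudocount of 2. Without FPC-LIPA 36, 37 and 39 that difference turned to 0.74 (adjusted p = 0.179, exact permutation test). The log2 ratio of Ly6c2 to Ly6c1 differed by -0.75 (exact permutation test, p = 0.610), by -0.26 with a pseudocount of 2, and by 1.71 without those libraries.

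FPC-LIPA set directly against CON-GFP gives both steps together. Of the 8 members tested 7 were called higher, all but Ly6c2, where 11.8% of the 14433 tested genes were called higher, and 3.25% lower, and 6 of the 7 had no overlap between groups, against 6.26% of all tested genes. The median log2 fold change was 2.11 over the tested members and 0.04 over all tested genes. Lyz2 was 9.82-fold higher (log2 fold change 3.30, SE 0.26, adjusted p = 7.92e-06, edgeR) and Igsf6 7.33-fold (2.87, SE 0.29, adjusted p = 2.50e-05, edgeR). Cd48, Ptprc and Cd52 were 4.99-fold, 4.37-fold and 4.28-fold higher, and Cd14 and Cd68 3.88-fold and 3.27-fold. For Ly6c2 the log2 fold change was 0.20 (SE 0.78, adjusted p = 0.867, edgeR). Lyz2 was 7.47-fold, Igsf6 5.37-fold, Cd68 4.91-fold, Cd14 4.63-fold, Cd48 4.25-fold, Cd52 3.34-fold and Ptprc 3.11-fold higher without FPC-LIPA 36, 37 and 39, all called. Acod1 passed the filter in that fit and was called at 5.34 on the log2 scale (adjusted p = 4.58e-04, edgeR). That value rests on 0 to 5 counts per CON-GFP liver. Cd68 overlapped between the full groups, which met at 6.43 and 7.09 CPM. Its log2 fold change was 2.30 (adjusted p = 1.92e-04, edgeR) without those 3 livers and 0.64 (adjusted p = 0.0856, edgeR) with them as the only livers of their group. Ly6c2 was at 1.07 (adjusted p = 0.1005, edgeR) without them and was called lower with them alone, at -3.53 (adjusted p = 0.00893, edgeR).

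Some of the members also varied together from mouse to mouse, whereas Chil3 had r values of -0.51 to 0.18 with the others. After each group's mean was removed from the log2 CPM values, Lyz2, Cd52, Cd48 and Igsf6 had pairwise Pearson r values of 0.75 to 0.85 over the 18 livers, and Ptprc joined them at 0.54 to 0.73. Cd68, Ly6c2 and Acod1 had r values of 0.58 to 0.73 with each other, and Cd68 and Lyz2 had -0.10. Without FPC-LIPA 36, 37 and 39 (15 livers), the r of Cd68 and Lyz2 was 0.61, that of Ly6c2 and Igsf6 went from -0.32 to 0.61, and that of Cd68 and Ly6c2 from 0.73 to 0.43. With the log2 ribosomal protein gene share, treated the same way over the 18 livers, r was -0.80 for Cd68, -0.77 for Ly6c2, 0.67 for both Cd52 and Igsf6, and 0.58 for Lyz2, and the part of that share in the r values between members was not tested. These values describe libraries that share groups and depth, and they carry no test.

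**Figure D4:**
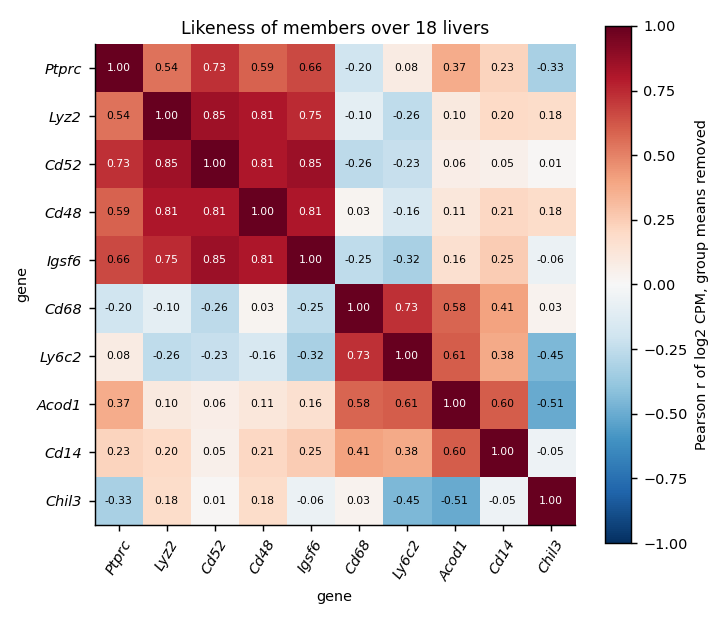
Pearson r between members over 18 livers, from log2 CPM with group means removed (red positive, blue negative). Ptprc, Lyz2, Cd52, Cd48 and Igsf6 have r values of 0.54 to 0.85 with each other, Cd68 and Ly6c2 are at 0.73 here and at 0.43 without FPC-LIPA 36, 37 and 39, and Chil3 is at -0.51 with Acod1.

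Among 12730 other genes, those most like Ptprc by the same measure were Zeb2 (r = 0.95), Nfe2l2 (0.93), Itga1 (0.88), Kctd12 (0.88) and Hmgcs1 (0.88). Zeb2 encodes a transcription factor of monocytes and macrophages, and Nfe2l2 the regulator of the oxidative stress response. FPC-LIPA 37 bears on these values, since without it Zeb2 was at 0.86 and Kctd12 at 0.65. Those most like Chil3 included Slc35f2, Psat1, Derl1 and Wdr76, at 0.76 to 0.77. Chil3 had only 0 to 43 counts per library. These r values are the highest among 12730 genes and carry no test, so they do not show that these genes vary with Chil3.

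Near copies limit the counts of Lyz2, Ly6c2 and Chil3, and shared exonic bases those of Cd52. The transcripts of Lyz2 and Lyz1, the lysozyme of Paneth cells, are 92.0% identical, and 15.4% of the 50-base windows of Lyz2 also occur in Lyz1. Lyz1 had 0 to 49 counts per library against at least 670 for Lyz2, so it is small beside it, and its log2 fold change was 2.23 in the LIPA comparison (adjusted p = 0.0264, edgeR). Ly6c2 shares 32.6% of its 50-base windows with Ly6c1, and Ly6c1 itself had only 1 to 26 counts. Chil3 shares 18.5% with Chil4, which had 0 to 3 counts. With windows of 100 bases the shares are smaller, at 2.0% for Lyz2, 15.8% for Ly6c2 and 3.8% for Chil3. The counts of Ly6c2 and Chil3 are therefore uncertain to the extent that reads were split between copies.

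Igsf6 lies inside Mettl9 on the opposite strand without shared exonic bases, and 14.49% of the exonic bases of Cd52 overlap Crybg2 on the opposite strand. Ptprc and Cd48 each overlap another gene on their own strand, with 0 shared exonic bases. Mettl9 was at 46.0 ± 3.48 CPM in FPC-GFP and 48.0 ± 21.3 CPM in FPC-LIPA, and Crybg2 at 3.09 ± 0.767 and 2.19 ± 0.795 CPM, where Igsf6 and Cd52 rose. Without a stated strand setting, reads in the shared bases of Cd52 and Crybg2 cannot be told apart.

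Other genes of the same pathways were read from lists. All list counts are to be read beside the 4.76% of all tested genes called higher with the diet and the 10.3% in the LIPA comparison. Of the pan-leukocyte list 7 of 16 genes were called higher in FPC-GFP against CON-GFP (median log2 fold change 0.92) against 4.76% of all tested genes, and 2 of 16 in FPC-LIPA against FPC-GFP (0.38), a share near the 10.3% of all tested genes. The median was 0.91, again with 2 called, without FPC-LIPA 36, 37 and 39. In the comparison of all livers they were Tyrobp, the adaptor of myeloid activating receptors (1.86), and the tetraspanin Cd53 (1.70). The most abundant gene of the list, the actin bundler Lcp1, had 0.69 and -0.67, neither called. The summed level of the list ran from 119 to 165 CPM in CON-GFP, 201 to 341 in FPC-GFP and 282 to 495 in FPC-LIPA. That sum mixes opposite courses. Tyrobp was at 55.7 to 74.7 CPM in FPC-LIPA 31, 33 and 34 and at 111 to 177 CPM in 36, 37 and 39. Cd53 was at 12.3 to 16.8 and 18.1 to 54.9 CPM in the same livers. Lcp1 was at 83.8 to 88.8 and 32.0 to 47.2 CPM there, against 69.3 to 133 CPM in FPC-GFP. Laptm5 was at 24.8 to 52.7 and 10.2 to 12.7 CPM, against 18.2 to 26.6 CPM in FPC-GFP.

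The monocyte list showed 4 of 14 genes called higher with the diet and 6 of 14 in the LIPA comparison, with medians of 0.59 and 0.95. Among them were Ms4a4c (2.75), Plac8 (2.06), Ms4a6c (2.01), Ccr2 (1.42) and Itgam (1.27), and of these named genes Itgam and Ms4a6c were also called with the diet. Ccr2, the chemokine receptor by which monocytes leave the marrow, was at 2.25 ± 1.01, 2.60 ± 0.959 and 7.01 ± 2.51 CPM in CON-GFP, FPC-GFP and FPC-LIPA. Ccr2 was at 9.48, 3.70 and 4.95 CPM in FPC-LIPA 31, 33 and 34 and at 9.40, 8.73 and 5.78 CPM in 36, 37 and 39, and so did not follow the split of Ly6c2. Plac8 did split, at 10.1 to 14.3 and 42.5 to 65.6 CPM, in the direction opposite to Ly6c2. Ms4a4c (1.36 to 1.92 and 5.24 to 6.51 CPM) and Ms4a6c (7.82 to 9.77 and 18.7 to 31.3 CPM) split in the same way as Plac8. Itgam did not, at 1.54 to 2.12 and 0.542 to 2.30 CPM. Fn1, the most abundant gene of the list and also a hepatocyte product, had -0.91 in the LIPA comparison and was not called.

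Many macrophage genes were called with the diet. Of the macrophage list 11 of 16 were called higher and 1 lower in FPC-GFP (median 1.30), and 6 of 16 were called higher in FPC-LIPA against FPC-GFP (0.78). The complement gene C1qb had 1.34 with the diet and 0.20 in the LIPA comparison, and the pore-forming Mpeg1 had 0.67 and 0.71, the latter 3 values not called. The Kupffer cell list had 6 of 9 called higher with the diet, and 2 of 10 higher (Clec1b and Xlr) and 2 lower (Cd163 at -1.09 and C6 at -1.51) in the LIPA comparison. The 2 most abundant Kupffer cell genes, Cd5l and Clec4f, had 1.52 and 1.01 with the diet, both called, and 0.92 and 0.49 in the LIPA comparison, both under the fold minimum. The LIPA comparison without FPC-LIPA 36, 37 and 39 called 2 of 16 macrophage genes higher and, of the Kupffer cell list, 1 of 10 higher and 0 lower, and with sample sheet numbers 55 to 68 it called 1 of 16 and 0 of 10. Over all tested genes these 2 fits called 111 of 15246 and 93 of 14736 higher.

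Of the SLAM family list, 4 of 7 tested genes were called higher with the diet (Slamf8 1.62, Slamf6 1.25, Ly9 1.12 and Slamf7 1.09) and 6 of 9 in the LIPA comparison (Sh2d1b1 2.75, Slamf9 1.91, Cd84 1.70, Cd2 1.53, Ly9 1.20 and Slamf7 1.19). The LIPA count of this list was 1 of 9 both without FPC-LIPA 36, 37 and 39 and with sample sheet numbers 55 to 68. Over all tested genes these 2 fits called 111 of 15246 and 93 of 14736 higher. Of the list of lipopolysaccharide sensing, in which CD14 acts, 2 of 11 were called higher with the diet, Cd180 (1.48) and Ly86 (1.12), against 4.76% of all tested genes. In the LIPA comparison 2 of 11 were called higher, the receptor Tlr4 (1.66) and its co-receptor Ly96 (1.61), against 10.3% of all tested genes. Of the 11, 0 were called without FPC-LIPA 36, 37 and 39 and 0 with sample sheet numbers 55 to 68. Ly96 was at 4.05 to 4.72 CPM in FPC-LIPA 31, 33 and 34 and at 13.5, 32.3 and 5.01 CPM in 36, 37 and 39. The other genes of that list include the most abundant ones, Lbp and Myd88, with -0.31 and 0.06 for the diet and -0.17 and -0.42 for LIPA, none called.

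Genes of inflammatory activation, to which Acod1 belongs by its induction, were called higher in 4 of 8 cases with the diet: Ccl2 (2.07), Nlrp3 (1.30), Il1b (1.28) and Cxcl10 (1.11). In the LIPA comparison 0 of 8 were called, with a median of 0.20. Il1b was the nearest at 1.36 (SE 0.47, adjusted p = 0.0523, edgeR), and the abundant Nfkbia and Irf1 had 0.05 and -0.13. Of the relatives of Chil3 none of the 3 tested was called in either comparison, Chid1 and Ctbs among them, and Chia1 and Chit1 were at 0 or 1 count in every library. Among the lysozyme, Ly6 and lysosomal membrane relatives, 0 of 5 were called with the diet and 2 of 6 in the LIPA comparison, Lyz1 and Lamp2 (1.29), whereas Lamp1 had -0.04. Neither was called without FPC-LIPA 36, 37 and 39 (0 of 6), and Lamp2 was at 278 to 526 CPM in FPC-LIPA 31, 33 and 34 and at 927 to 2436 CPM in 36, 37 and 39.

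Markers of other cells were called in the LIPA comparison too, where 10.3% of all tested genes were called higher. Called higher were 2 of 3 tested neutrophil genes (S100a8 2.90 and S100a9 2.63), 4 of 9 B cell, 2 of 7 T cell, 2 of 4 NK cell (Gzma 2.98 and Klrk1 1.84), 4 of 9 dendritic cell and 2 of 5 red blood cell genes (Hbb-bs 3.33 and Hbb-bt 2.86). With the diet none of 3 tested neutrophil, 7 B cell, 2 NK cell, 7 dendritic cell and 5 red blood cell genes was called. Of 6 tested T cell genes 1, Cd4, was called lower. The B cell, T cell, NK cell and dendritic cell lists thus had fewer genes tested with the diet than in the LIPA comparison. Gzma was among those not tested with the diet. Summed levels of the neutrophil list, in which Mpo had at most 3 counts in any library, ran from 3.15 to 6.24 CPM in FPC-GFP and from 7.85 to 21.7 CPM in FPC-LIPA. The B cell list ran from 16.3 to 34.0 and from 22.9 to 67.2 CPM, and the red blood cell list from 283 to 474 and from 520 to 2675 CPM. The part of blood in the liver in the member values was not tested.

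Without FPC-LIPA 36, 37 and 39 the LIPA comparison called 0 of 4 neutrophil, 0 of 10 B cell, 0 of 8 T cell, 0 of 5 NK cell, 0 of 9 dendritic cell and 3 of 5 red blood cell genes, 2 of 16 monocyte genes, and 4 of the 10 members (Ptprc, Lyz2, Igsf6 and Acod1). Fewer livers were then compared, and 111 of 15246 genes were called higher over the whole table. The medians of the monocyte and B cell lists were 0.85 and 1.41 in that fit.

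Of 8 hepatocyte genes 2 were called lower with the diet, against 2.44% of all tested genes, and 1 in the LIPA comparison, against 1.11%, and Alb had -0.15 and -0.23. Of 8 endothelial genes 1 and 0 were called, and of 8 stellate genes 2 (Col1a1 and Col3a1) and 1 (Col3a1, 1.70) were called higher, against 4.76 and 10.3% of all tested genes. No hepatocyte or stellate gene of these lists was called in the LIPA comparison without FPC-LIPA 36, 37 and 39. No cholangiocyte gene of 5 was called in either.

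**Figure D5:**
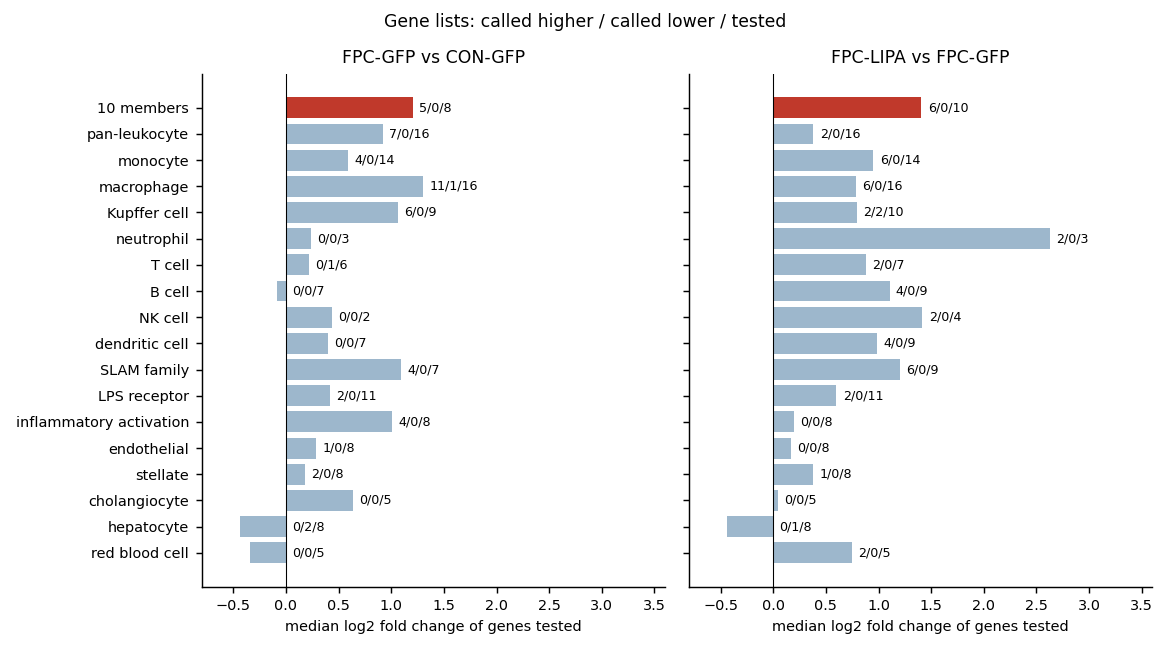
Median log2 fold change of the tested genes of each list for the diet (left) and LIPA (right) comparisons, with the 10 members in red and, beside each bar, the number called higher, called lower and tested. The member bars are at 1.21 over 8 tested members and at 1.41 over 10, so they are not over the same genes. The macrophage list is at 1.30 and 0.78, and the neutrophil list, at 2.63 on the right, rests on 3 genes.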

How the data were processed

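Liver RNA of 18 mice was sequenced as paired reads. The authors trimmed reads with Trimmomatic, aligned them to GRCm38 with Hisat2 2.1.0 and obtained gene counts with Subread's featureCounts, and the deposited values are raw counts. The annotation, strand setting and handling of multi-mapping reads are not given in the sources used here, and both a stranded and an unstranded kit are named. The table's other 5 columns, named for other vectors, were left aside. Groups followed the labels, and each replicate is a mouse.

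Each comparison was fitted on its 12 libraries with edgeR 4.0.16 (R 4.3.3): filterByExpr, TMM scaling, and the quasi-likelihood test with Benjamini-Hochberg adjustment over all tested genes. The SE is the log2 fold change divided by the square root of F. Of the 55487 genes, 55227 were matched to GENCODE M21. CPM per kb used merged exonic length. A prior count of 2 entered log2 CPM, and ratios used a pseudocount of 0.5. Exact permutation tests of 6 against 6 livers can reach p = 0.00216 at best. Total counts were 16632146 or more. Counting error weighs most on Acod1, Chil3 and Ly6c2. It also enters the spread of Cd14, Cd48 and Igsf6 in CON-GFP, where they had 24 to 90, 29 to 78 and 29 to 76 counts. A gene with 3 counts or fewer was taken as at the floor.

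The text names every member, the 2 most abundant genes of each other list, called genes of the small lists, the paralogs, and the 5 genes most like Ptprc and Chil3. Genes outside this rule (other called genes of the cell type lists, Mpo, Chia1 and Chit1) were named after their values were seen. Values of some genes that the rule names are not reported here. Members and lists were chosen with earlier results of these data known. Alternatives were DESeq2 1.42.0 (size factors and Wald test), upper-quartile scaling, library size alone, other filters and thresholds, one fit of all libraries, sample sheet numbers 55 to 68, removal of length or GC trends, and each library left out. Scripts were tested on simulated data. Python 3.11.15, scipy 1.17.1 and matplotlib 3.10.9 were used for tests and figures.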

Additional observations from a re-analysis of the deposited data

Results flagged for a closer look

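A sample far from the others of its group was looked for in 42 sets of 6 livers, where the gap to the nearest value was divided by the group's range and compared with Dixon's 95% critical value for 6 values. Chance gives about 1 in 20, and 2 were found. Ptprc was at 76.5 CPM in FPC-LIPA 37, where the other FPC-LIPA livers lay between 14.5 and 22.4 CPM, a gap of 0.872 of the range. The log2 ratio of Ly6c2 to Clec4f was -8.04 in CON-GFP 7, where the other CON-GFP livers lay between -6.90 and -6.39, a gap of 0.692 of the range. Ly6c2 had 9 counts in that library.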

How the results depend on the processing

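The number of members called was 5 to 6 in the diet comparison, 3 to 6 in the LIPA comparison and 7 to 9 against CON-GFP over the alternatives run. It was 3 in the LIPA comparison (Lyz2, Cd52 and Igsf6) both with sample sheet numbers 55 to 68 and at an adjusted p under 0.01. Over all tested genes, 93 of 14736 and 52 of 14620 were called higher under these settings, against 1508 of 14620 in the main fit. Leaving out each library in turn gave 5, 5 to 6 and 7 to 8. Of the single-gene fold changes 575 kept their direction and side of the threshold, 15 lost the call and 13 changed sign. The sign changes were in members that had not passed the test. Ly6c2 turned in the diet comparison with library size alone (0.0708) and without CON-GFP 6 (0.12, the others left out in turn giving down to -0.29), and against CON-GFP without FPC-LIPA 31 (-0.0385), 33 (-0.32, up to 0.47 over the libraries left out) or 31, 33 and 34 (-3.53). In the LIPA comparison, Cd68 turned with the length trend removed (-0.13) and without FPC-LIPA 33 (-0.13, up to 0.27), 34 (-0.0918) or 31, 33 and 34 (-0.91), Cd14 without FPC-LIPA 33 (-0.0362, up to 0.55) or 31, 33 and 34 (-0.13), and Ly6c2 without FPC-LIPA 33 (-0.18, up to 0.59) or 31, 33 and 34 (-3.37). The cause was not tested.

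Among the ratios, sheet numbers 55 to 68 gave 0.83 for Lyz2 to Ptprc (adjusted p = 0.0952, exact permutation test) and -0.93 for Ly6c2 to Clec4f (adjusted p = 0.127, exact), both no longer past the threshold with fewer livers, and -0.16 for Ly6c2 to Ly6c1 in the diet comparison. Without FPC-LIPA 36, 37 and 39, Ly6c2 to Clec4f was 0.74 and Ly6c2 to Ly6c1 1.71. With each library left out, the diet ratios lay from 0.75 to 0.97, -1.30 to -0.97 and -0.26 to 0.35, and the LIPA ratios from 0.28 to 0.75, -2.32 to -0.92 and -1.57 to 0.20, in the order Lyz2 to Ptprc, Ly6c2 to Clec4f, Ly6c2 to Ly6c1. The diet calls of the first and second ratio were lost in 9 and 11 of these 12 fits, with adjusted p from 0.0519 to 0.0649 (exact). No paired analysis was possible because the groups share no mouse numbers. Depth limits Acod1, Chil3 and Ly6c2, which had at most 244, 43 and 67 counts.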
